A study of Mus musculus with 6 samples.

Results

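Trem2, Gpnmb, Spp1, Lgals3, Cd9 and Cd63 are 6 genes that mark lipid-associated macrophages, and they were followed here in peritoneal macrophages of wild-type mice and of mice that overexpress angiotensin-converting enzyme (ACE). They were found by their symbols among 25509 gene rows, each on 1 row, and all 6 were among the 13256 genes that passed the filter on low counts. The 6 libraries came from C57BL/6 mice, 3 of genotype WT and 3 labelled JWT (Tg-ACE), called Tg-ACE below, whose Ace gene is overexpressed. All mice had received thioglycollate in the peritoneum, an inflammatory stimulus that recruits macrophages. Cells were taken on day 4, separated on a Percoll gradient and cultured for 2 h, and the adherent cells gave the RNA. By experiment code, replicate 1 of each genotype belongs to Exp-156, and the other two libraries of each to Exp-156b. The sources used here give neither what the codes stand for, nor the promoter that drives the transgene, the age of the mice or whether replicates came from separate mice. The p-values therefore measure the spread between these libraries, which may be technical.

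TREM2 is a surface receptor for lipids, lipoproteins and dying cells that signals through the adaptor TYROBP (DAP12) and the kinase SYK. Macrophages that take up much lipid, in fat tissue, in atherosclerotic plaques or beside damaged myelin, are known to express it together with genes of lysosomes, lipid handling and cell-matrix contact. GPNMB is a glycoprotein of lysosomes and late endosomes whose gene is a known target of the MiT/TFE transcription factors. SPP1 (osteopontin) is a secreted ligand of integrins and CD44, and galectin-3, from Lgals3, is a lectin that binds galactose-containing glycans and gathers on damaged lysosomes. CD9 and CD63 are tetraspanins, membrane proteins that organise other proteins at the cell surface and in late endosomes respectively, and both are carried on extracellular vesicles.

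The sequences before the start sites of Gpnmb, Trem2 and Spp1 are shown because the first pair rose together between the experiment codes and the third did not. They are RefSeq promoter sequences of GRCm38.p6, forward strand, 5′ to 3′, from 250 bases before the RefSeq start up to the start annotated in GENCODE or RefSeq, whichever lies further downstream. Capitals mark the only matches to the 4 motifs searched.
Gpnmb, chr6:49036268-49036545: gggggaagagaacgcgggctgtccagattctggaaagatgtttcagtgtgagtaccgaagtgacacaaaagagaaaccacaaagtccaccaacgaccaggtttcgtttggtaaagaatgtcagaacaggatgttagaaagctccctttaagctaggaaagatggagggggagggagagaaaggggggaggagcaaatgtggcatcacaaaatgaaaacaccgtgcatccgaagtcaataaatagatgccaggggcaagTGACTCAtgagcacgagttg
Trem2, chr17:48346151-48346400: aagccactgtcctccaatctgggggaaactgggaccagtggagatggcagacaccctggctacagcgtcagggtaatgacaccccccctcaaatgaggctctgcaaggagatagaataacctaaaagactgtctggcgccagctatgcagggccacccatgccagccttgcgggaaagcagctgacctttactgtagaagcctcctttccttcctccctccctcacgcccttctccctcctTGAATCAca
Spp1, first start, chr5:104434861-104435117: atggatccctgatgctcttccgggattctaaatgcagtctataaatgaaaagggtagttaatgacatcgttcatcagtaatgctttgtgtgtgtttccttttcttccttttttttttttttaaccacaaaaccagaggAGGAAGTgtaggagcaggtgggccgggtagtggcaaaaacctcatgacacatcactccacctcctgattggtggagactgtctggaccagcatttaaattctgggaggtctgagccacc
In the Gpnmb sequence the capitals are an AP-1 element, TGANTCA, at bases 9 to 15 counted from the RefSeq start as base 1. In the Trem2 sequence they are the same element at bases -9 to -3, where base -1 is the last before the start. In the Spp1 sequence they are the Ets element AGGAAGT, a core of sites bound by PU.1, the factor that sets macrophage identity, at bases -112 to -106. The other motifs searched were the E-box CACGTG of MiT/TFE factors and the E-box CATGTG, which MITF also binds. Motifs were searched on both strands in 300 bases per start, from 250 before to 50 after, and none of the matches shown overlapped another. Of 32817 mouse promoters of that length, 7.81% held the AP-1 element, 9.35% the Ets element, 7.15% CACGTG and 14.2% CATGTG. Cd9 held CACATG, which is CATGTG on the opposite strand, at bases -38 to -33. The windows of Lgals3, Cd63 and the second Spp1 start held none of the 4 motifs. The motifs were picked with these sequences in view, and a match is no evidence of binding.

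The libraries differed by experiment code in more than the 6 genes. They held between 24294244 and 28120393 counts, and counts-per-million (CPM) were scaled by edgeR's TMM factors. Xist, expressed from the inactive X chromosome, was nearly absent in Exp-156 (0.408 and 0.526 CPM) but ran from 327.3 to 455.1 in Exp-156b. Ddx3y, on the Y chromosome, reached 47.8 and 51.5 CPM in the Exp-156 libraries but at most 0.107 in Exp-156b, so the codes go with a difference in sex markers. Ace was higher in every Tg-ACE library (100.4, 25.7 and 31.8 CPM in replicates 1 to 3) than in any WT library (16.7, 7.61 and 11.6). Of 2 genes that passed edgeR's genotype test with the code in the fit, 0 were higher in Tg-ACE, so Ace did not pass. All 8 macrophage core markers were detected in every library, with summed CPM of 21420 and 21550 for Exp-156 against 18070 to 22030 for Exp-156b, most of it from Lyz2 (14310 to 18040 CPM). Some other core markers were lower in all Exp-156b libraries, among them Itgam (1636 and 1710 against 391.5 to 628 CPM). So were Adgre1, the F4/80 antigen (629.8 and 644 against 214 to 352), and Fcgr1 (105 and 154 against 17.3 to 60.4). Cd68 (2205 and 2174 CPM against 1956 to 2220) and Mertk (124 and 142.6 against 105.5 to 158.1) overlapped between the codes, as did Lyz2.

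**Figure D1:**
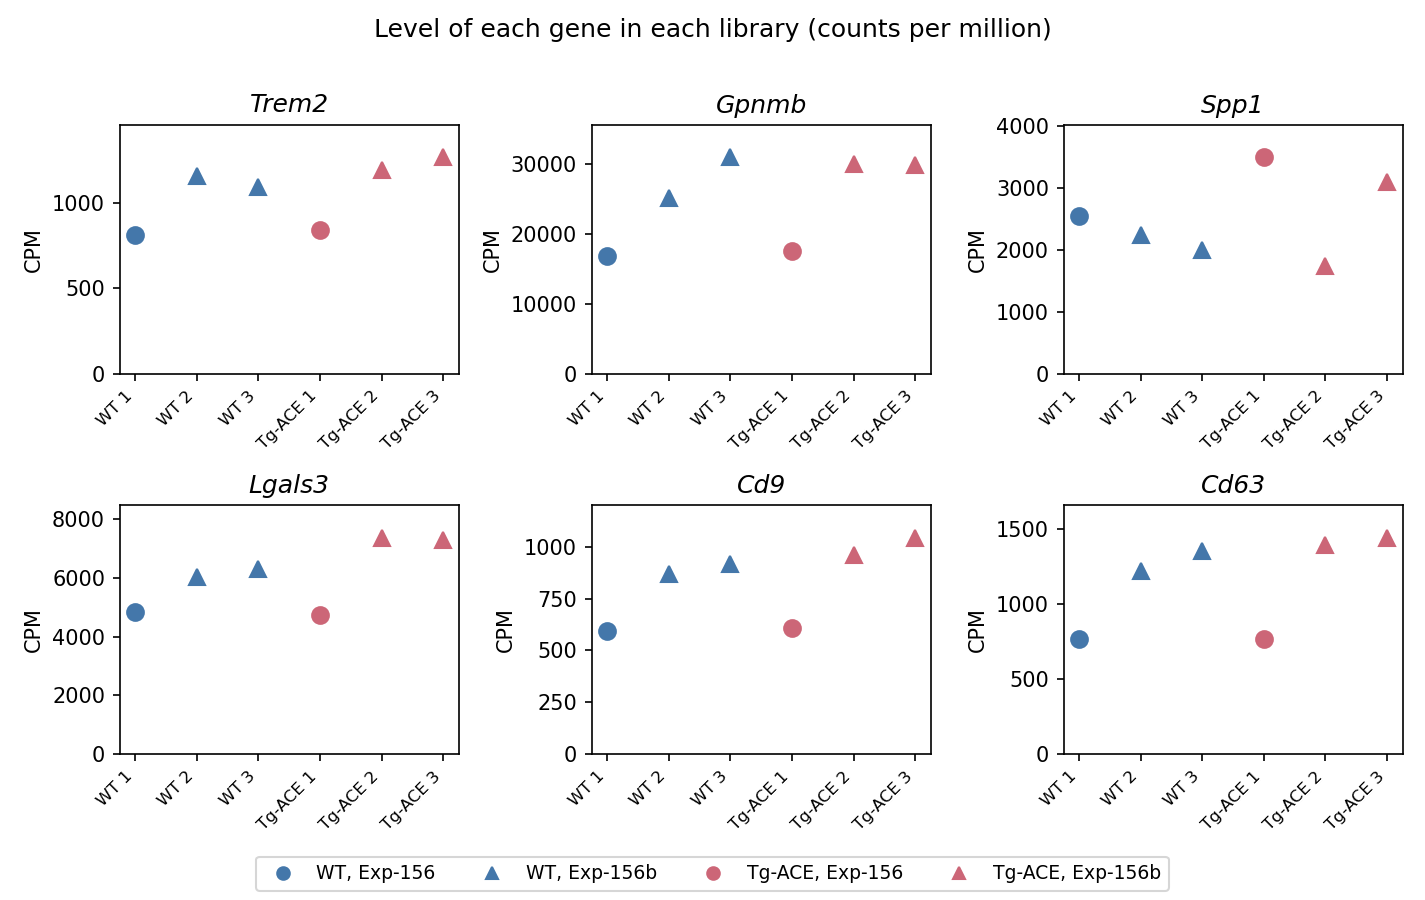
CPM of each gene (y axis, 1 panel per gene) in the 6 libraries, with colours for the genotype and symbols for the experiment code. In 5 panels both Exp-156 libraries lie below all 4 Exp-156b libraries, as for Cd63 (771 and 767 against 1224 to 1445 CPM), while the Spp1 libraries of the 2 codes overlap.

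Gpnmb had the highest mean level per exon length of the 6 genes and took more counts than any other gene in the Exp-156b libraries. It took 1.70% of the counts in WT replicate 1 and 1.78% in Tg-ACE replicate 1, and between 2.53% and 3.15% in the other 4 libraries. By count it ranked 3 among all genes in both Exp-156 libraries and 1 in all 4 Exp-156b libraries. Per exon length it ranked between 7 and 11 over the 6 libraries. The 6 genes together made up 2.66% and 2.84% of the counts in Exp-156 and between 3.69% and 4.34% in Exp-156b.

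**Figure D2:**
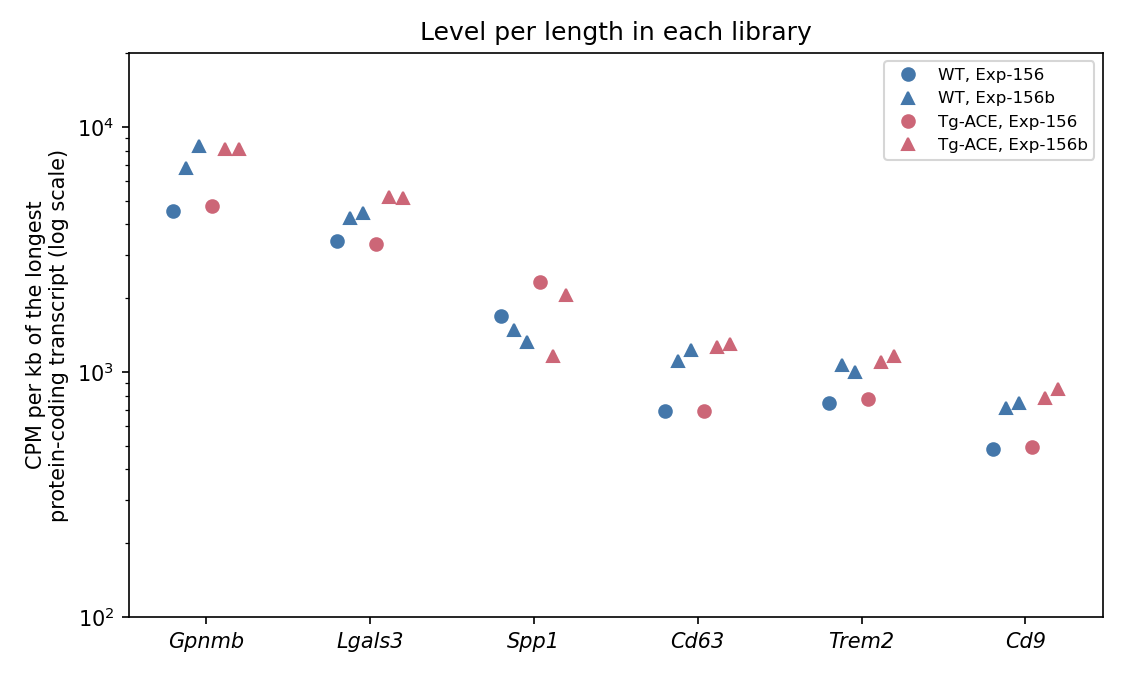
CPM per kilobase of the longest protein-coding transcript (y axis, log scale) for each gene, 1 symbol per library. Gpnmb spans 4550 to 8365 and Lgals3 3333 to 5189, above Spp1 at 1158 to 2320, while the ranges of Cd63, Trem2 and Cd9 overlap. The Spp1 range also overlaps those of Cd63 (up to 1303) and Trem2 (up to 1163).

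Between genes, levels were compared per kilobase. Over the total exon length of each gene, Gpnmb stood highest at 3853 ± 987 CPM per kilobase (SD, n = 6), followed by Lgals3 at 3276 ± 614 and Spp1 at 1529 ± 407. Cd9 (407 ± 92.0), Cd63 (315 ± 84.6) and Trem2 (214 ± 38.4) were lower. The ranges of Gpnmb (2585 to 4753) and Lgals3 (2545 to 3963) overlapped, as did those of neighbours among Cd9, Cd63 and Trem2, whereas Spp1 (1059 to 2122) overlapped with no other gene. Over the longest transcript of any type, the lower 3 kept their order, with Cd9 at 677, Cd63 at 401 and Trem2 at 221 CPM per kilobase. Their order changed with another length. Over the longest protein-coding transcript, a length chosen after the data were seen, Cd63 stood at 1046 ± 281 CPM per kilobase, Trem2 at 973 ± 175 and Cd9 at 677 ± 153, and all their ranges overlapped. The total exons of Trem2 span 4946 bases against 1088 in its longest protein-coding transcript, and those of Cd63 3682 against 1109. Gpnmb, Lgals3 and Spp1 kept their order, at 6782 ± 1738, 4290 ± 805 and 1672 ± 445. On this length the lowest Spp1 library (1158) lay below the highest of Cd63 (1303) and of Trem2 (1163), so their ranges overlapped.

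Between the experiment codes, 5 of the 6 genes rose in Exp-156b, by 1.402 to 1.76 times, and Spp1 did not pass. The receptor gene Trem2 (ENSMUSG00000023992.14, GRCm38 chr17:48346401-48354147, forward strand) stood at 810.2 and 839 CPM in replicate 1 of WT and of Tg-ACE. In Exp-156b it stood at 1158 and 1091 CPM in WT and 1189 and 1265 CPM in Tg-ACE. All 4 Exp-156b libraries thus lay above both Exp-156 libraries, and the log2 fold change, Exp-156b minus Exp-156, was 0.51 (SE 0.08, 95% interval 0.34 to 0.69). With genotype held in the fit, it passed the quasi-likelihood test of edgeR after Benjamini-Hochberg adjustment (adjusted p = 0.00147). In bulk RNA, fewer cells of a type and less RNA per cell cannot be told apart.

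The lysosomal members showed the largest differences of the 6. Gpnmb (ENSMUSG00000029816.10, chr6:49036546-49070929, forward strand) stood at 16838 CPM in WT and 17597 in Tg-ACE in Exp-156. In Exp-156b it stood at 25210.3 and 30960.3 in WT and 30069.6 and 29922 in Tg-ACE. WT replicate 2 was the lowest of the 4 yet above both Exp-156 libraries. The log2 fold change was 0.75 (SE 0.11, interval 0.50 to 1.01, edgeR adjusted p = 0.00136). Cd63 (ENSMUSG00000025351.13, chr10:128900989-128912822, forward strand) stood at 771 CPM in WT and 767 in Tg-ACE in Exp-156, against 1224 and 1358 in WT and 1395 and 1445 in Tg-ACE in Exp-156b. The 2 libraries of Exp-156 were almost level and the other 4 all higher, with a log2 fold change of 0.82 (SE 0.08, interval 0.62 to 1.01, edgeR adjusted p = 2.73e-04). Of the 75-base windows in Cd63 transcripts, 6.47% also occur in the pseudogene Cd63-ps, which has no row in the count table.

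Cd9, the other tetraspanin, and Lgals3 moved the same way. Cd9 (ENSMUSG00000030342.8, chr6:125460266-125494791, reverse strand) stood at 594 CPM in WT and 607 in Tg-ACE in Exp-156, and at 870.2 and 915 in WT and 960.1 and 1044 in Tg-ACE in Exp-156b. The codes did not overlap, and the log2 fold change was 0.65 (SE 0.08, interval 0.47 to 0.84, edgeR adjusted p = 5.89e-04). Of its windows 7.63% are shared, most of them with Gm26728 on the opposite strand, and whether counting used strand is not stated in the sources at hand. Lgals3 (ENSMUSG00000050335.16, chr14:47367751-47386160, forward strand) stood at 4835 CPM in WT and 4729 in Tg-ACE in Exp-156, and at 6014 and 6300.4 in WT and 7364 and 7280.0 in Tg-ACE in Exp-156b. Here too the codes did not overlap, with a log2 fold change of 0.49 (SE 0.09, interval 0.27 to 0.71, edgeR adjusted p = 0.0048). Without Tg-ACE replicate 1 Lgals3 did not pass (0.35, edgeR adjusted p = 0.0538), and over all alternatives its adjusted p ran from 2.54e-07 to 0.0538.

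Spp1, the osteopontin gene, behaved differently from the other 5. Spp1 (ENSMUSG00000029304.14, chr5:104435118-104441050, forward strand) stood at 2544 CPM in WT and 3496 in Tg-ACE in Exp-156, and at 2239 and 1994 in WT and 1746 and 3099 in Tg-ACE in Exp-156b. Tg-ACE replicate 3 lay above the WT library of Exp-156, so the codes overlapped. The log2 fold change was -0.40 (SE 0.20, interval -0.87 to 0.07), which did not pass (edgeR adjusted p = 0.144). Without Tg-ACE replicate 3 it passed as lower in Exp-156b (-0.58, edgeR adjusted p = 0.0398). Its adjusted p ran from 0.0398 to 0.552 over all alternatives. Spp1 also varied most within Exp-156b, with a coefficient of variation of 25.95% over the 4 libraries, against 6.15% to 10.1% for the other 5 genes. Of its windows 8.55% are shared with the overlapping same-strand gene Gm42793, which has no row in the count table.

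The count of 5 of 6 stands against a background in which the codes differed widely. Of 13256 genes tested, 43.2% passed in either direction, 19.8% as higher in Exp-156b and 23.4% as lower (2630 and 3102 genes). With upper-quartile factors 3353 of 5987 genes that passed were higher, and the calls of the 6 genes did not change. Libraries of the codes did not overlap, with Exp-156b higher, for 5 of the 6 genes and for 28.9% of all genes. The median log2 fold change was 0.58 over the 6 genes and -0.01 over all genes tested. The 5 genes that rose stood between the 84.4 and 91.2 percentiles of the log2 fold changes, and Spp1 at the 22.3 percentile. An exact two-sided permutation test over samples gave p = 0.0667 for each of the 5, the smallest that 15 assignments of 2 against 4 libraries allow, and p = 0.267 for Spp1. Within WT alone and within Tg-ACE alone the 5 genes kept their direction, from 0.35 for Lgals3 to 0.74 for Cd63 in WT and from 0.55 for Trem2 to 0.89 for Cd63 in Tg-ACE. Spp1 differed by -0.27 in WT and -0.59 in Tg-ACE. Whatever the codes stand for, the sex markers and any other difference between these libraries cannot be told apart here.

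**Figure D3:**
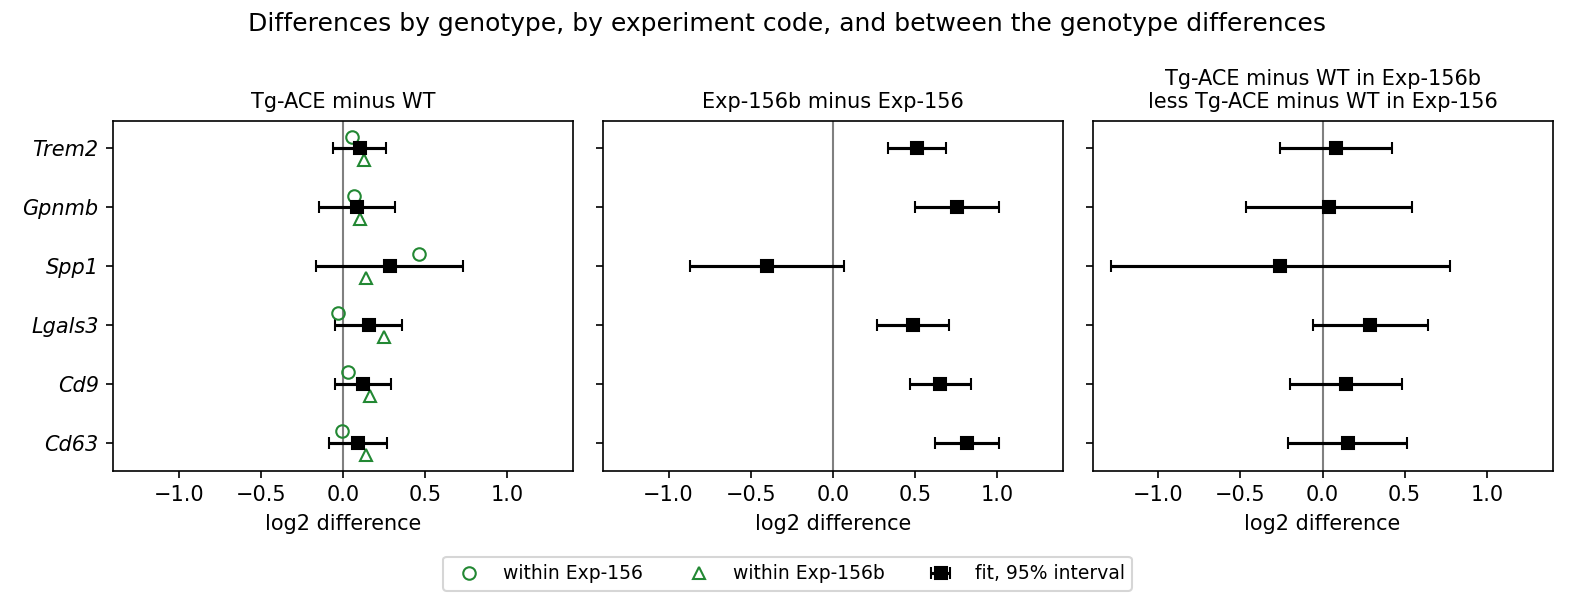
Log2 differences of each gene (x axis) for Tg-ACE minus WT, for Exp-156b minus Exp-156, and for the difference between the codes in the genotype difference. Squares are fitted values with 95% intervals, circles and triangles the values within each code. All genotype intervals include 0, and for the codes 5 of 6 intervals lie above it (0.27 to 0.71 for Lgals3, 0.62 to 1.01 for Cd63).

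Between the genotypes, none of the 6 genes passed the test. All 6 had a higher mean in Tg-ACE, and for each the WT and Tg-ACE libraries overlapped. Trem2 stood at 1020 ± 185 CPM in WT and 1098 ± 227 in Tg-ACE (SD, n = 3 each here and below), Gpnmb at 24340 ± 7102 and 25860 ± 7159, and Cd63 at 1118 ± 308 and 1202 ± 378. Cd9 stood at 793 ± 174 and 870.3 ± 232, Lgals3 at 5716 ± 777 and 6458 ± 1498, and Spp1 at 2259 ± 276 and 2780 ± 918. For all but Spp1, the lowest library of each genotype was the Exp-156 library, and the fit holds the code.

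Tg-ACE minus WT, the log2 fold changes were 0.10 (SE 0.07) for Trem2, 0.08 (SE 0.10) for Gpnmb, 0.28 (SE 0.19) for Spp1, 0.16 (SE 0.09) for Lgals3, 0.12 (SE 0.07) for Cd9 and 0.09 (SE 0.08) for Cd63. Adjusted p ran from 0.796 for Lgals3 to 0.891 for Gpnmb in the quasi-likelihood test of edgeR, adjusted by the Benjamini-Hochberg method. In edgeR 0 of the 6 genes passed, against a background of 0.0151% (2 of 13256 genes), and 0 had an unadjusted p under 0.05, against 860 genes. DESeq2 and limma-voom also called 0 of the 6. Groups that did not overlap, with Tg-ACE higher, were found for 0 of 6 genes and for 2.26% of all genes. Exact two-sided permutation tests over 20 assignments gave p between 0.5 and 0.7, where 0.1 is the smallest possible. These assignments and the overlap of the genotypes leave out the code, by which the libraries differ. Within each code, every Tg-ACE library lay above every WT library for Trem2 and Cd9, and for Lgals3 and Cd63 this held within Exp-156b but not within Exp-156. Exchanging libraries only within a code, a test added after seeing the data, gave exact two-sided permutation p = 0.167 for Trem2 and Cd9, the smallest that 12 assignments allow, 0.333 for Lgals3 and Cd63 and 0.5 for Gpnmb and Spp1.

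The intervals show which sizes of change these libraries leave possible. As fold changes of Tg-ACE over WT, the 95% intervals were 0.959 to 1.2 for Trem2, 0.902 to 1.25 for Gpnmb, 0.968 to 1.28 for Lgals3, 0.968 to 1.22 for Cd9 and 0.941 to 1.202 for Cd63. The interval for Spp1 was wider, at 0.892 to 1.66. The median log2 fold change of the 6 was 0.11, beside -0.01 over all genes tested, of which 48.1% lay above 0. Leaving out Tg-ACE replicate 2 moved Spp1 to 0.51 and leaving out Tg-ACE replicate 3 moved it to 0.05. Without WT replicate 2 Gpnmb stood at 0.001 and Cd63 at 0.03, and without WT replicate 3 Gpnmb stood at 0.17. None of these passed.

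Within Exp-156, Tg-ACE minus WT was 0.46 for Spp1 and between -0.03 and 0.06 for the other 5 genes. Within Exp-156b it was between 0.10 and 0.25 for all 6, with Lgals3 at 0.25 and Spp1 at 0.14. The difference between the codes in the genotype difference was 0.08 for Trem2, 0.04 for Gpnmb, -0.26 for Spp1, 0.29 for Lgals3, 0.14 for Cd9 and 0.15 for Cd63. In edgeR's quasi-likelihood test 0 of the 6 passed with adjustment and 0 had an unadjusted p under 0.05, with Lgals3 lowest at 0.0899. Of 13684 genes tested 0% passed, and 984 had an unadjusted p under 0.05. The test was run in edgeR only, and its spread comes from the 4 Exp-156b libraries, since each genotype has 1 library in Exp-156.

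**Figure D4:**
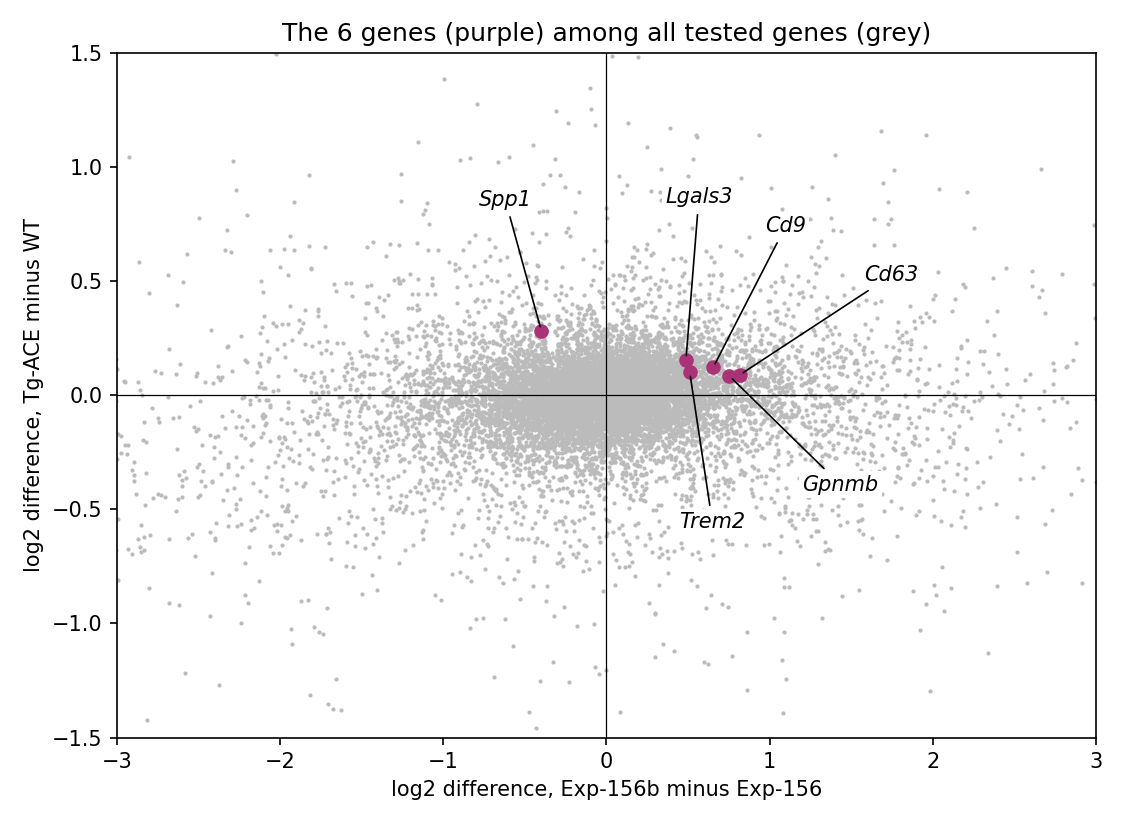
Log2 difference Exp-156b minus Exp-156 (x axis) against Tg-ACE minus WT (y axis) for the genes tested, the 6 genes in purple. It shows 12943 genes, and 313 lie outside the axes. Along the x axis 5 of the 6 lie between 0.49 and 0.82 and Spp1 at -0.40, and along the y axis all lie between 0.08 and 0.28.

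The balance between members shifted with the code. Spp1 counts per Gpnmb count were 0.151 and 0.199 in the WT and Tg-ACE libraries of Exp-156 and between 0.0581 and 0.104 in Exp-156b. The 2 tetraspanin genes kept closer proportions, with Cd63 per Cd9 at 1.30 and 1.26 in Exp-156 and between 1.38 and 1.49 in Exp-156b. Trem2 counts per count of its adaptor Tyrobp were 0.714 and 0.748 in Exp-156. In Exp-156b they were 1.16 and 1.18 in WT and 0.961 and 0.968 in Tg-ACE, and Tyrobp itself stood at a log2 fold change of -0.03 between the codes (edgeR adjusted p = 0.821). Lgals3 per Lgals1, the gene of galectin-1, was 5.21 in both Exp-156 libraries and between 7.43 and 9.33 in Exp-156b. These ratios were not tested.

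Around the receptor, more genes of TREM2 signalling fell than rose between the codes. Of 17 tested, 10 (58.8%) fell in Exp-156b, beside 23.4% of all genes, and 6 did not pass, among them Tyrobp and Apoe (0.03), with a median of -0.35. Hcst, the DAP10 adaptor gene and the only one of the 17 that rose, did so by 0.53. Pik3cd, a catalytic subunit of PI3-kinase, fell by 1.26 on the log2 scale, and Plcg2, the phospholipase that acts below SYK, fell by 0.61. Card9, an adaptor below SYK, fell by 0.48, and Ms4a4a, a membrane protein linked to soluble TREM2, fell by 2.38. By genotype 0 of 17 passed in edgeR. Tyrobp had the smallest p, with 0.26 (unadjusted p = 0.0317), then Apoe, a TREM2 ligand, with 0.17, Vav1 with 0.10 and Card9 with -0.11.

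Genes of lipid uptake, storage and efflux were divided between the codes, with 8 of 14 (57.1%) higher in Exp-156b, beside 19.8% of all genes. Another 4 (28.6%) were lower, beside 23.4% of all genes, and 2 did not pass, with a median of 0.30. Lipa, the lysosomal acid lipase, rose by 0.74 and Fabp5, a fatty acid carrier, by 0.79. Plin2, the coat protein of lipid droplets, fell by 0.84 and Lpl, lipoprotein lipase, fell by 0.48. In edgeR 0 of 14 passed by genotype. The smallest p belonged to Plin2 with 0.31 (unadjusted p = 0.00277, edgeR adjusted p = 0.601), then Pnpla2, a triglyceride lipase, with 0.19, Lpl with 0.16 and Fabp4 with 0.25.

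Among 15 genes of the lysosome, which is where GPNMB and CD63 reside, 6 (40%) rose in Exp-156b, beside 19.8% of all genes. Another 2 (13.3%) fell, beside 23.4% of all genes, and 7 did not pass, with a median of 0.16. Creg1, a lysosomal glycoprotein gene, rose by 1.08 and Ctsd, the protease cathepsin D, by 0.64. Cst7, which encodes the cathepsin inhibitor cystatin F, fell by 5.53 from a mean of 4.925 CPM to 0.0987. The lower mean is under the 0.107 to 0.123 CPM that 3 counts correspond to, so the size of this fall rests on few counts. None of the 4 MiT/TFE factor genes passed between the codes: Tfec stood at -0.25, Mitf at -0.14, Tfeb at 0.12 and Tfe3 at 0.06. By genotype 0 of 15 lysosomal and 0 of 4 MiT/TFE genes passed in edgeR. Lgmn, the protease legumain, stood at 0.26 and Ctsl, cathepsin L, at 0.34.

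Receptors of osteopontin were mostly lower or did not pass. Of 9 tested, 1 (11.1%) rose in Exp-156b, beside 19.8% of all genes. Another 4 (44.4%) fell, beside 23.4% of all genes, and 4 did not pass, with a median of -0.32. Cd44 fell by 0.80, and among the integrin subunits Itga4 fell by 1.21 and Itgb1 by 0.32 on the log2 scale while Itga5 rose by 0.57. In edgeR 0 of 9 passed by genotype, with Itga4 at -0.29 (unadjusted p = 0.00706). Lgals3 was joined by 2 of the 7 tested galectin and galectin-related genes (28.6%) as higher in Exp-156b, beside 19.8% of all genes. They were Lgals3bp, which encodes a secreted galectin-3 ligand (0.68), and Lgals8 (0.30). Another 3 (42.9%) fell, beside 23.4% of all genes, Lgals9 by 0.90 and Lgals4 by 1.34 among them. The remaining 2 did not pass, and the median of the 7 was -0.33.

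Of 20 other tetraspanins tested, 2 (10%) rose in Exp-156b as Cd9 and Cd63 did, beside 19.8% of all genes. Another 5 (25%) fell, beside 23.4% of all genes, and 13 did not pass, with a median of 0.01. The 2 that rose were Cd82 (1.03) and Tspan4 (0.88), a tetraspanin of migrasomes. Tspan32 fell by 2.37, and Tspan14, a partner of the protease ADAM10, fell by 0.53. By genotype 0 of 20 tetraspanins and 0 of 7 galectins passed in edgeR. Tspan3 stood at 0.16, Cd37 at -0.18 and Lgals1 at 0.25.

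The other genes listed as lipid-associated or disease-associated macrophage genes were divided. Of 15 tested, 2 (13.3%) rose in Exp-156b, beside 19.8% of all genes, 5 (33.3%) fell and 8 did not pass, with a median of -0.10. The 2, named here after their values were seen, were Itgax, the CD11c gene (1.45), and Anxa1 (0.29). The 4 with the smallest p all fell: Folr2, a folate receptor of resident-type macrophages, by 2.57, the chemokine gene Ccl6 by 2.49, Anxa2 by 0.87 and Vim by 0.73. In edgeR 0 of 15 passed by genotype. Folr2 stood at 0.62 (unadjusted p = 9.19e-04, edgeR adjusted p = 0.435), and Mmp12, a macrophage elastase, at 0.21. Over all 8 lists, 101 of 109 genes were tested, 22 (21.8%) rose, 33 (32.7%) fell and 46 did not pass between the codes, beside 19.8% and 23.4% of all genes. By genotype 0 passed in edgeR and 11 (10.9%) had an unadjusted p under 0.05, beside 6.49% of all genes. Above 0 stood 67 (66.3%), beside 48.1% of all genes.

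**Figure D5:**
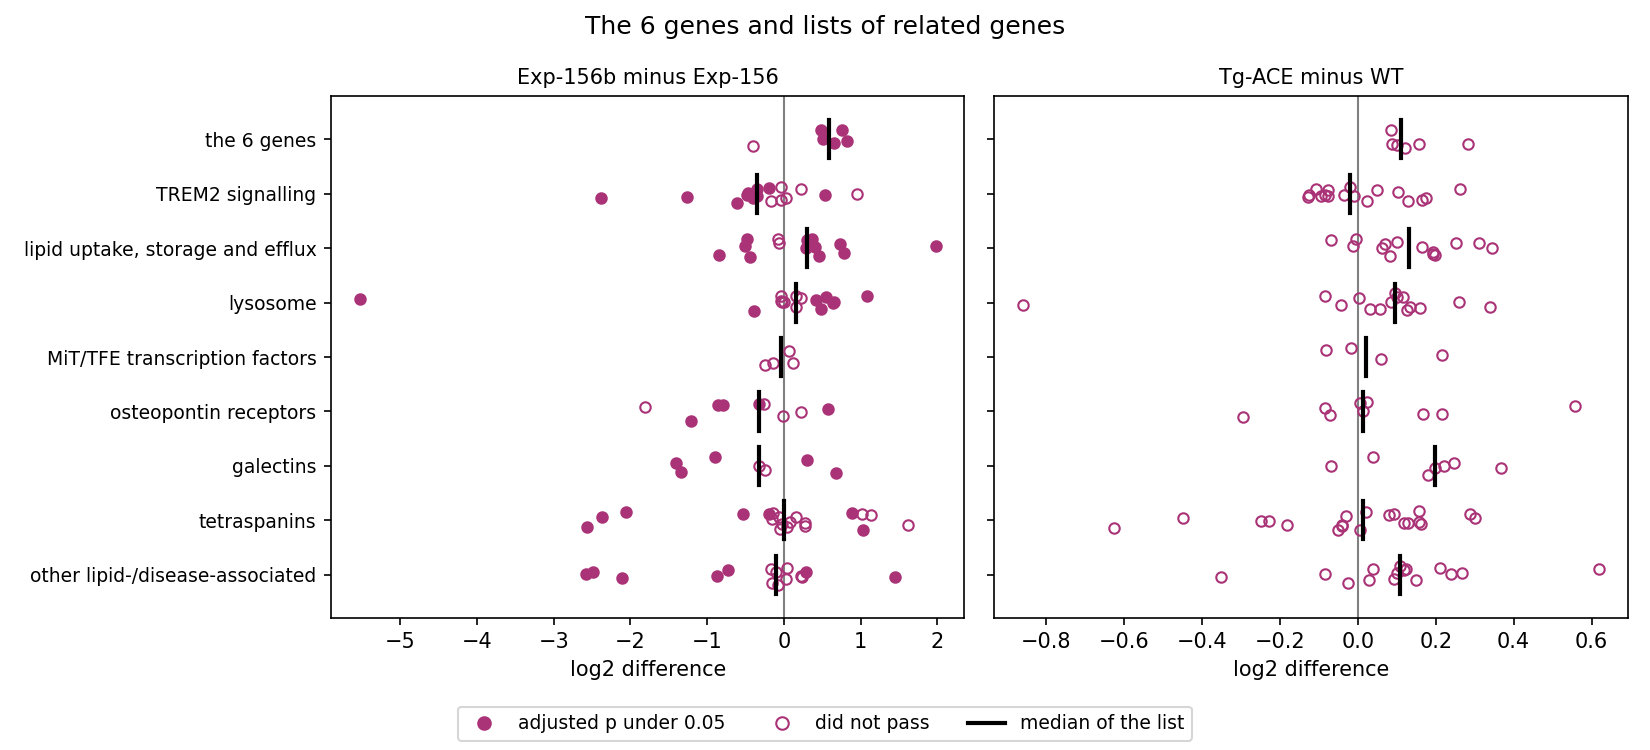
Log2 differences (x axis) of the 6 genes and of 8 lists of related genes (rows), Exp-156b minus Exp-156 on the left and Tg-ACE minus WT on the right. Filled points passed at an adjusted p under 0.05 and bars are medians, which for the codes run from -0.35 (TREM2 signalling) to 0.58 (the 6 genes). No point is filled for the genotypes.

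Markers of other peritoneal cells moved with the code beside the 6 genes. The summed level of 7 monocyte and small peritoneal macrophage markers was 431 and 594 CPM for Exp-156 against 48.4 to 182 for Exp-156b. Of these 7, Chil3 overlapped between the codes (58.8 and 56.9 against 21.8 to 121.8 CPM) and the others were lower in Exp-156b. The sum of 6 eosinophil markers was 98.0 and 240.4 CPM against 10.3 to 21.2. For 9 mast cell and basophil markers it was 68.6 and 109 against 15.1 to 30.8, and for 6 dendritic cell markers 47.8 and 61.7 against 5.35 to 9.74. The 9 neutrophil markers summed to 145 and 151 CPM against 87.4 to 99.3, most of it from Csf3r (91.4 and 107.8 against 68.4 to 80.4). S100a9, Mmp8, Cxcr2 and Ltf were also lower in Exp-156b. S100a8 overlapped between the codes, and Ly6g, Camp and Ngp reached at most 0.838 CPM. The 10 T and NK cell markers summed to 27.6 and 32.3 CPM against 6.99 to 9.78. The 9 erythroid and platelet markers summed to at least 70.0 CPM against 16.7 to 36.3.

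In the other direction, 10 mesothelial and fibroblast markers summed to 236 and 255 CPM for Exp-156 against 312 to 647 for Exp-156b. Col1a1, Col1a2, Dcn, Pdgfra, Upk3b, Wt1 and Lum were higher in all Exp-156b libraries. Krt19 was lower there (5.51 and 6.59 against 2.99 to 4.36 CPM), and Msln and Col3a1 overlapped between the codes. The ranges of 6 B cell markers (97.1 to 123 against 58.4 to 132 CPM) overlapped between the codes. So did the sum of 8 large peritoneal macrophage markers (214 to 277 against 156.2 to 280), most of which is Saa3 (128 to 247 CPM). Its members differed by code in both directions, with Timd4 (4.61 and 9.61 CPM against at most 0.604) and Icam2 (19.9 and 21.0 against at most 5.18) lower in Exp-156b and Gata6 higher (5.30 and 6.77 against 12.7 to 17.8). All these sums overlapped between the genotypes. Their part in the higher Trem2, Gpnmb, Lgals3, Cd9 and Cd63 of Exp-156b was not tested.

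The genes whose log2 CPM followed each member most closely over the 6 libraries were named from 9428 genes with a mean of at least 5 CPM. For Trem2 they were Zfp593 (Pearson r 0.999), Rsph9 (0.997) and Cisd1 (0.996), and for Gpnmb Pck2 (0.999), Tmem109 (0.998) and BC022687 (0.997). For Lgals3 they were Slc25a39 (0.9995), D2Wsu81e (0.999) and Actn4 (0.998), for Cd9 Crlf2, Vcp and Noc4l (0.998, 0.998 and 0.997), and for Cd63 Ctsd, Drg2 and Nars (0.998, 0.998 and 0.998). For Spp1 the closest were lower, Cyp20a1 (0.982), Kif11 (0.980) and Tmem206 (0.971). The libraries fall into 2 clusters by code and share their scaling, so these values over 6 libraries only describe the pattern.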

How the data were processed

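Poly-A RNA from 6 libraries of thioglycollate-elicited mouse peritoneal macrophages had been sequenced as single 75-base reads from a stranded kit, per the labels. The deposited values are the authors' expected counts per gene, not normalized. The submitters' processing notes name STAR 2.5.0, RSEM 1.2.25, mm10 and GRCh38 without roles, and the strand setting and annotation of the counting are not given in the sources used here. Groups came from sample titles, and the design text, which names the second group Tg-NKO, was not followed. The table held 0 columns of other samples.

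Expected counts were rounded to whole numbers. The 92 spike-in rows, with 1 count in all, were left out. The edgeR 4.0.16 quasi-likelihood test (R 4.3.3, limma 3.58.1) was fitted on all 13256 genes kept by filterByExpr, with genotype and experiment code as terms, TMM factors, a prior count of 2 for log2 CPM and Benjamini-Hochberg adjustment at 0.05. A model with both terms and their interaction, with its own filter, gave the difference between codes. Intervals are 95% intervals from the fit. The alternatives were other scalings and filters, DESeq2 1.42.0, limma-voom, the tested term alone, a replicate block and leaving out each library. Leaving out libraries in the interaction and the protein-coding length were chosen after seeing the data. The scripts were checked on simulated counts. A library's total was 24294244 to 28120393 counts, so 3 counts correspond to 0.107 to 0.123 CPM, for counting error only.

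Same-numbered libraries of the genotypes deviated together (r = 0.871, 0.533 and 0.667, all over 0.1), but replicates 2 and 3 did so as much when crossed (0.567 and 0.638), so the pairing goes with the experiment code. Positions came from GENCODE vM21 on GRCm38, where 25251 of 25509 identifiers were found, and promoters from RefSeq, which held all 6 genes. Shared 75-base windows were counted over the annotated transcripts. The named genes are the 6, up to 4 per list and contrast with the smallest unadjusted p, and the 3 most similar per member. Some genes that this rule names are not reported here. The members and lists were chosen with earlier results of these data known.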

Additional observations from a re-analysis of the deposited data

Results flagged for a closer look

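Among the 4 Exp-156b libraries, the log2 CPM of Gpnmb in WT replicate 2 stood apart below the others. Its gap to the nearest library was 0.834 of the whole range, above Dixon's 95% critical value for 4 samples. Chance passes this value in about 1 in 20 groups, and 6 genes were looked at. WT replicate 2 held 25210.3 CPM of Gpnmb, against 29922 to 30960.3 in the other 3.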

How the results depend on the processing

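By genotype 0 of the 6 genes passed in all 15 alternatives run. Every value stayed above 0, but that of Gpnmb came down to 0.001, from 0.08, without WT replicate 2. By experiment code 5 passed in every alternative except 2: without Tg-ACE replicate 1 there were 4 (Lgals3 at 0.35, adjusted p = 0.0538 in edgeR) and without Tg-ACE replicate 3 there were 6 (Spp1 at -0.58, adjusted p = 0.0398). For the difference between the codes in the genotype difference, leaving out each Exp-156b library in turn gave Gpnmb values from -0.11 (without WT replicate 2) to 0.20 and Spp1 values from -0.72 to 0.092 (without Tg-ACE replicate 2), turning the sign of each at the named library, and 0 of 6 passed. Among all genes, 2 passed by genotype, against 9 with no filter beyond 1 count, 37 in DESeq2, 6 in limma-voom, 0 with genotype as the only term (126 at an unadjusted p under 0.05) and 2 to 3 without each library. By code 5732 passed, and between 3553 (without WT replicate 1) and 5260 without each library, with 3580 without Tg-ACE replicate 1, settings that leave 1 library in Exp-156, which is assumed to vary like the others. With upper-quartile factors 5987 passed by code. For the interaction 0 passed, and 0 to 10 without each Exp-156b library (10 without WT replicate 3). With the replicate block, 2 genes and 0 of the 6 passed by genotype, 5263 genes and 5 of the 6 by code, and it changed no call among the 6. The causes of these changes were not tested. Within Exp-156 each genotype has 1 library, and depth limits values near 0.123 CPM or below, far under the levels of the 6 genes.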
